A study of Mus musculus with 16 samples.

Results

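H3K27me3 domains that were present in all 4 cell populations of the study are described here. They were chosen from the H3K27me3 peak list of quiescent hair follicle stem cells. A peak of that list was kept when it shared at least 1 bp with an H3K27me3 peak in each of the 3 other lists. This gave 1604 shared domains, which is 84.0% of the 1909 peaks of the starting list, while the 4 lists together hold 60204 H3K27me3 peaks. The H3K27me3 lists chose the domains, so their H3K27me3 overlap, width and score are given as a description. Domains that touched through wider peaks of the other lists were joined into 1247 runs. Of these runs, 1000 held a single domain and 247 held 2 or more, with 604 domains among them and 6 at most in one run, so neighbouring domains are not independent of each other.

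The marks were mapped by chromatin immunoprecipitation and sequencing (ChIP-seq) in cells sorted from the skin of wild-type CD1 x FVB mice, labelled male in every sample although the study's methods name both sexes for most analyses. EA-HFSCs were CD34+ / α6-integrin+ bulge stem cells of early anagen, the growth phase, at postnatal day (PD) 22 to 25, and non-EA-HFSCs were the CD34- / α6-integrin+ cells of the same age. LC-HFSCs and non-LC-HFSCs were the matching populations of late catagen, when the stem cells are quiescent, at PD38 to PD44. The 12 lists cover H3K4me3, H3K9me3 and H3K27me3 in the 4 populations. The study's methods name 15 to 20 mice, with the chromatin of each population divided among the antibodies, so the marks of a population share mice. Repeat experiments used independent sets of mice, and their reads were pooled before peaks were called against IgG. This leaves 1 list per condition and no spread between repeats that could be computed from the lists. The score of a peak is 10 times the negative log10 of its p-value. The lists hold no read depth, and the study's methods state that LC-HFSCs had more reads than EA-HFSCs. The H3K27me3 lists differ in length, with 1909 peaks in LC-HFSCs, 25534 in EA-HFSCs, 17488 in non-EA-HFSCs and 15273 in non-LC-HFSCs. A rule anchored on the shortest list follows what that list kept. Shares carry 95% Wilson intervals and medians carry 95% order-statistic intervals, both of which cover counting error only, and no test between populations was possible.

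H3K27me3 is laid down by the Polycomb repressive complex PRC2, whose catalytic subunits are Ezh2 and Ezh1. It covers genes that are held silent in a lineage, above all regulators of other lineages, and CpG-rich promoters are its usual targets. H3K4me3 marks the starts of active and poised genes, and a start that carries both marks is called bivalent. H3K9me3 is the mark of constitutive heterochromatin and is bound by HP1 proteins.

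The sorted populations were compared with marker genes through H3K4me3 within 3000 bp of any annotated transcript start. All 8 basal keratinocyte markers had H3K4me3 in each of the 4 populations. Cd34, the surface marker of the sort, had H3K4me3 in LC-HFSCs and EA-HFSCs and in neither CD34- population, while Itga6, which encodes α6-integrin, had it in all 4. Of 9 melanocyte markers, 3 had H3K4me3 in LC-HFSCs, 4 in EA-HFSCs, 4 in non-EA-HFSCs and 2 in non-LC-HFSCs. The corresponding numbers were 1, 2, 2 and 2 of 10 leukocyte markers, 3, 4, 3 and 2 of 9 fibroblast markers, and 1 of 7 endothelial markers in every population. The domains were matched to the single gene start. By that start, 6 of the 8 basal keratinocyte markers had H3K4me3 in each population, and Itga6 and Trp63 had it in none. The leukocyte numbers were then 1, 1, 1 and 2, and those of the melanocyte, fibroblast and endothelial lists were the same. Pooled cells were measured, so a mark in all cells and a mark in some of them cannot be told apart, nor can a pair of marks on one allele and in different cells.

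Stretches of 6 shared domains are shown first, because CpG content and the presence of a gene start or of H3K4me3 set the domains apart from each other. Each is the 300-base window with the most CpG outside exons of a domain, taken from the 2 highest-scoring domains of each kind except that a domain near Fgf1, which ranked between those of the last kind, is not shown, read from the + strand of mm9, with every CpG in capitals. Lmx1a (chr1:169618815-169619114) and Atoh1 (chr6:64684518-64684817), a homeobox and a bHLH gene of neural development, start inside domains with H3K4me3 in all 4 populations. A stretch is named after the gene of its domain and need not lie at the gene start. That of Atoh1 lies downstream of the gene (chr6:64679140-64681227). Pgpep1l (chr7:75409120-75409419) and C1ql2 (chr1:122236849-122237148) start inside domains without H3K4me3 in any population. The last pair come from domains with no protein-coding gene start within 3000 bp and no H3K4me3, 15431 bp from the start of the homeobox gene Evx1 (chr6:52241285-52241584) and 27694 bp from that of Mecom (chr3:30413888-30414187), a zinc finger gene of blood stem cells.
Lmx1a: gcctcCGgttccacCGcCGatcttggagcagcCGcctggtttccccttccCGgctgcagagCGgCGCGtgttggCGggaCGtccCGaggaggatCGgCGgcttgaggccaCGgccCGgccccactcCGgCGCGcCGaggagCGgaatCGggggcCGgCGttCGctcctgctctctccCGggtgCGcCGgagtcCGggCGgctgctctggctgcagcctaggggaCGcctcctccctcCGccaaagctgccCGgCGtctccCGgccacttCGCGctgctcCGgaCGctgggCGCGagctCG
Atoh1: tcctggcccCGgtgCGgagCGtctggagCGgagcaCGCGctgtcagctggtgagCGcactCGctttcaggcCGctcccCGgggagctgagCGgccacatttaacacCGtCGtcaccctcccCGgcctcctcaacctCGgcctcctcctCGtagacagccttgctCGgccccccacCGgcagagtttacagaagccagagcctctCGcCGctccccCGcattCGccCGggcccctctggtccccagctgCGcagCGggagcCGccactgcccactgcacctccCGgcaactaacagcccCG
Pgpep1l: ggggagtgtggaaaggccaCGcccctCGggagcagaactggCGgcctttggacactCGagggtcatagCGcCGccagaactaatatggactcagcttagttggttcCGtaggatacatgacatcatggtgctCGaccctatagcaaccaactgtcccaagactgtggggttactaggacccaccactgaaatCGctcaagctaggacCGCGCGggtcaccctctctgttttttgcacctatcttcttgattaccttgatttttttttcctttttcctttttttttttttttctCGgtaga
C1ql2: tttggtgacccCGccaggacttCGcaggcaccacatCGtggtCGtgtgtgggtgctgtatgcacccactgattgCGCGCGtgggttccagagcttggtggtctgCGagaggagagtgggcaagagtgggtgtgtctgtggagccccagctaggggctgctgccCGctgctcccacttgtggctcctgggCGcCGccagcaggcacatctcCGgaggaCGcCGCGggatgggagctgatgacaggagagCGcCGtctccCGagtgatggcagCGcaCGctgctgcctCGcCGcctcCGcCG
near Evx1: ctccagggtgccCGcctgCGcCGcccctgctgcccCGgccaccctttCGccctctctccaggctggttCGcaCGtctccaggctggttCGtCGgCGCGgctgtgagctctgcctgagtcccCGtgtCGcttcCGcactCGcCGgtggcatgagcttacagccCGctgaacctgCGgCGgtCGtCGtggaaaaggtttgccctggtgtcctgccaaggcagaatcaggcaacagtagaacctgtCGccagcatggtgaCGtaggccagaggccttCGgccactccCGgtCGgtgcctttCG
near Mecom: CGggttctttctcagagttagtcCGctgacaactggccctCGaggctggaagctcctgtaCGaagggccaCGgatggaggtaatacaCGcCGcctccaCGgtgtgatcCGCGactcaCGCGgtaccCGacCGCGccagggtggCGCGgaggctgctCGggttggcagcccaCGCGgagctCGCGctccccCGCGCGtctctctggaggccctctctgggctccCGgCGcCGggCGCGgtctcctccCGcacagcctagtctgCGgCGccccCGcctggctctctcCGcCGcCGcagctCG

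The Lmx1a stretch held 41 CpG, and 0.0496% of the 8527783 windows of 300 bases in the genome held as many. The Atoh1 stretch held 28 (0.202% of windows), the C1ql2 stretch 24 (0.284%) and the Pgpep1l stretch 13 (1.14%). In the domains without a protein-coding start within 3000 bp, the stretch near Evx1 held 27 (0.22%) and that near Mecom 38 (0.0735%). Each stretch was chosen for its CpG, so a low share of windows follows from the choice.

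Over whole domains, the CpG content was 0.340 of that expected from the base composition (median, 95% interval 0.33 to 0.35, 1600 domains on placed chromosomes). The 305 LC-HFSC peaks that missed at least 1 other list had a median of 0.215 (0.20 to 0.239), and the genome as a whole had 0.191. GC content differed less, with a median of 48.6% in the shared domains, 46.7% in the other LC-HFSC peaks and 41.8% in the genome. A ratio of at least 0.6 was reached by 83 shared domains (5.19%) and by 1 of the other peaks (0.328%).

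At the shared domains, the LC-HFSC peaks were narrower than the peaks of the other lists that overlapped them. Each domain is 1 LC-HFSC peak, while peaks of another list at a domain were summed, and an overlap finds wide peaks more readily than narrow ones. The median width was 3184 bp in LC-HFSCs (95% interval 3071 to 3316), 7412.5 bp in EA-HFSCs (7070 to 7705), 10168 bp in non-EA-HFSCs (9775 to 10721) and 5221.5 bp in non-LC-HFSCs (4997 to 5447). Over the whole lists the order was another, with a median peak width of 2979 bp in LC-HFSCs, 1381 bp in EA-HFSCs, 2612 bp in non-EA-HFSCs and 1469 bp in non-LC-HFSCs. Within a domain, the LC-HFSC width was 0.505 times the EA-HFSC width (median ratio, 0.482 to 0.527) and was the smaller at 1499 domains (93.5%), while the non-LC-HFSC width was 0.583 times the non-EA-HFSC width (0.561 to 0.60) and the smaller at 1535 (95.7%). A wide peak that holds several domains counts once for each of them in these medians.

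**Figure D1:**
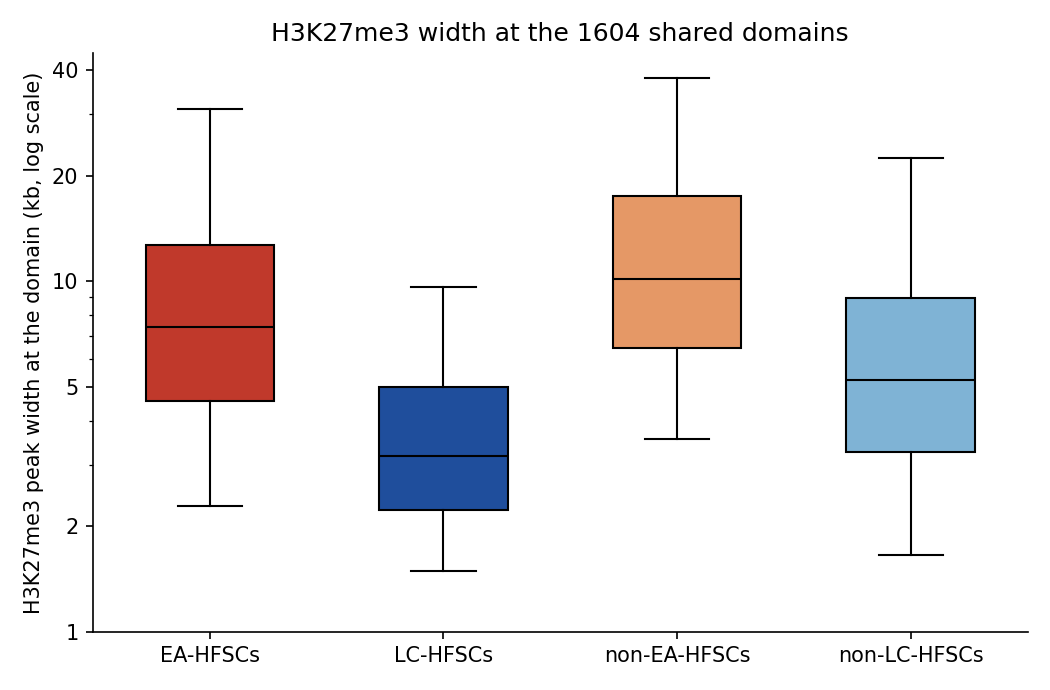
Width of the H3K27me3 peaks at the 1604 shared domains in each list (kb, log scale), where boxes span the quartiles, lines are medians and whiskers reach the 5th and 95th percentiles. The LC-HFSC median of 3184 bp was the smallest and the non-EA-HFSC median of 10168 bp the largest.

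LC-HFSCs had the narrowest peak at 1278 domains (79.7%) and non-EA-HFSCs the widest at 1173 (73.1%). The order LC-HFSCs, non-LC-HFSCs, EA-HFSCs, non-EA-HFSCs was the most frequent, with 673 domains (42.0%). The wider peaks mostly enclosed the LC-HFSC peak, which was covered over its whole length at 1136 domains (70.8%) in EA-HFSCs, 1472 (91.8%) in non-EA-HFSCs and 817 (50.9%) in non-LC-HFSCs. Outward from the middle of the domains, peak cover dropped within 5000 bp to 18.5% upstream and 17.9% downstream on the chromosome in LC-HFSCs, against 53.6% and 54.1% in EA-HFSCs.

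**Figure D2:**
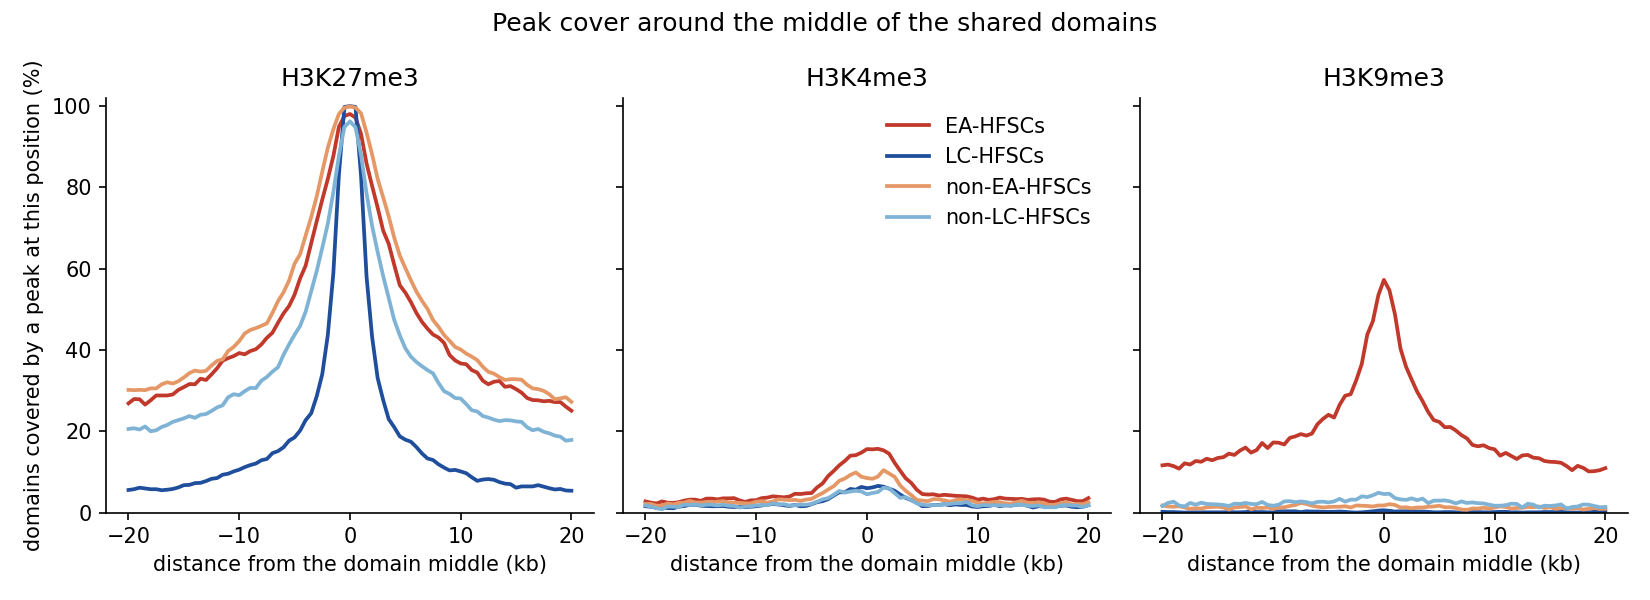
Share of 1600 shared domains that a peak covers at each distance from the domain middle (kb), for H3K27me3, H3K4me3 and H3K9me3 in the 4 populations. The profile is anchored on the LC-HFSC peaks, which fixes their cover of 100% at the middle, while H3K27me3 cover 5 kb upstream was 18.5% in LC-HFSCs and 53.6% in EA-HFSCs, and H3K9me3 cover reached 57.3% at the middle in EA-HFSCs.

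The best-scoring peaks at the domains ranked high within the lists of the other populations, which is a description because these lists chose the domains. The median best score was 748 in EA-HFSCs, 673 in non-EA-HFSCs and 484 in non-LC-HFSCs, at percentiles 95.9, 94.1 and 92.5 of their own lists, and 65.2 in LC-HFSCs, at percentile 54.9. The best score is the highest among all peaks that overlap a domain, and a peak that holds several domains counts once for each. The shared domains are 84.0% of the LC-HFSC list, so a percentile near the middle of that list follows from the rule. Scores depend on depth and were not compared between lists. Peaks at the domains made up 5.87% of the EA-HFSC peaks and 21.0% of their length, 7.53% and 22.3% in non-EA-HFSCs, and 1675 peaks with 26.6% of the length in non-LC-HFSCs. The EA-HFSC peaks elsewhere had a median width of 1326 bp.

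Few domains passed the rule by a narrow overlap. Just inside it, the smallest overlaps were 17 bp at chr9:52053344-52055246, 77128 bp from the start of Zc3h12c, then 39, 99, 157 and 161 bp, all with the non-LC-HFSC list. Just outside it, the smallest gaps were 20 bp at a peak 1938 bp from the start of Cacna1b, then 22, 31, 34 and 81 bp. Overlaps under 100 bp decided 3 members, and 53 of the 305 excluded peaks had a gap under 1000 bp, with a median gap of 6287 bp over all of them. The score threshold also counted, as the rule gave 1194 domains with scores of at least 50 in every list.

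With a window of 3000 bp, about as many domains were at gene starts as away from them, while 412 domains (25.7%) held a start inside. A protein-coding gene start lay within 3000 bp of 779 domains (48.6%, 46.1 to 51.0%), against 43.5% of all LC-HFSC H3K27me3 peaks and 51 of the 305 other peaks (16.7%, 13.0 to 21.3%). Of the EA-HFSC peaks that were present in all 4 lists, 52.6% were at a start (50.0 to 55.1%, n = 1503), against 29.5% (28.3 to 30.8%, n = 4957) of those that only LC-HFSCs lacked. The shared domains were wider than the other LC-HFSC peaks, with medians of 3184 and 2138 bp, and a wider region reaches a start more readily. The part of width in these shares was not tested. The 821 domains away from starts on placed chromosomes had a median distance of 27089 bp to the nearest start. Of these, 294 touched a gene body, 527 lay between genes, 133 shared a run with a domain at a start, and 136 (16.6%) were more than 100 kb from any start. Chromosome 19 had the most domains for its length (70, or 11.4 per 10 Mb). Chromosome X had the fewest (16, or 0.960 per 10 Mb) apart from Y, which had none. All 16 LC-HFSC peaks on X were shared domains, against 84.0% of all LC-HFSC peaks. The EA-HFSC list also had its fewest peaks on X apart from Y, with 124. Of these, 8.06% were present in all 4 lists, the highest share of any chromosome.

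A total of 710 of 22225 protein-coding gene symbols started within 3000 bp of a shared domain, which is 3.19% of all symbols, and 424 started inside one. Sites that only LC-HFSCs lacked held 1192 symbols (5.36%). In 9 lists of developmental transcription factors with 422 symbols, 141 were at shared domains (33.4%) and 75 at the sites that only LC-HFSCs lacked (17.8%). These genes were 19.9% of the genes at shared domains and 6.29% of the genes at the other sites. The gene lists were matched by symbol, and the counts describe the lists without a test.

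**Figure D3:**
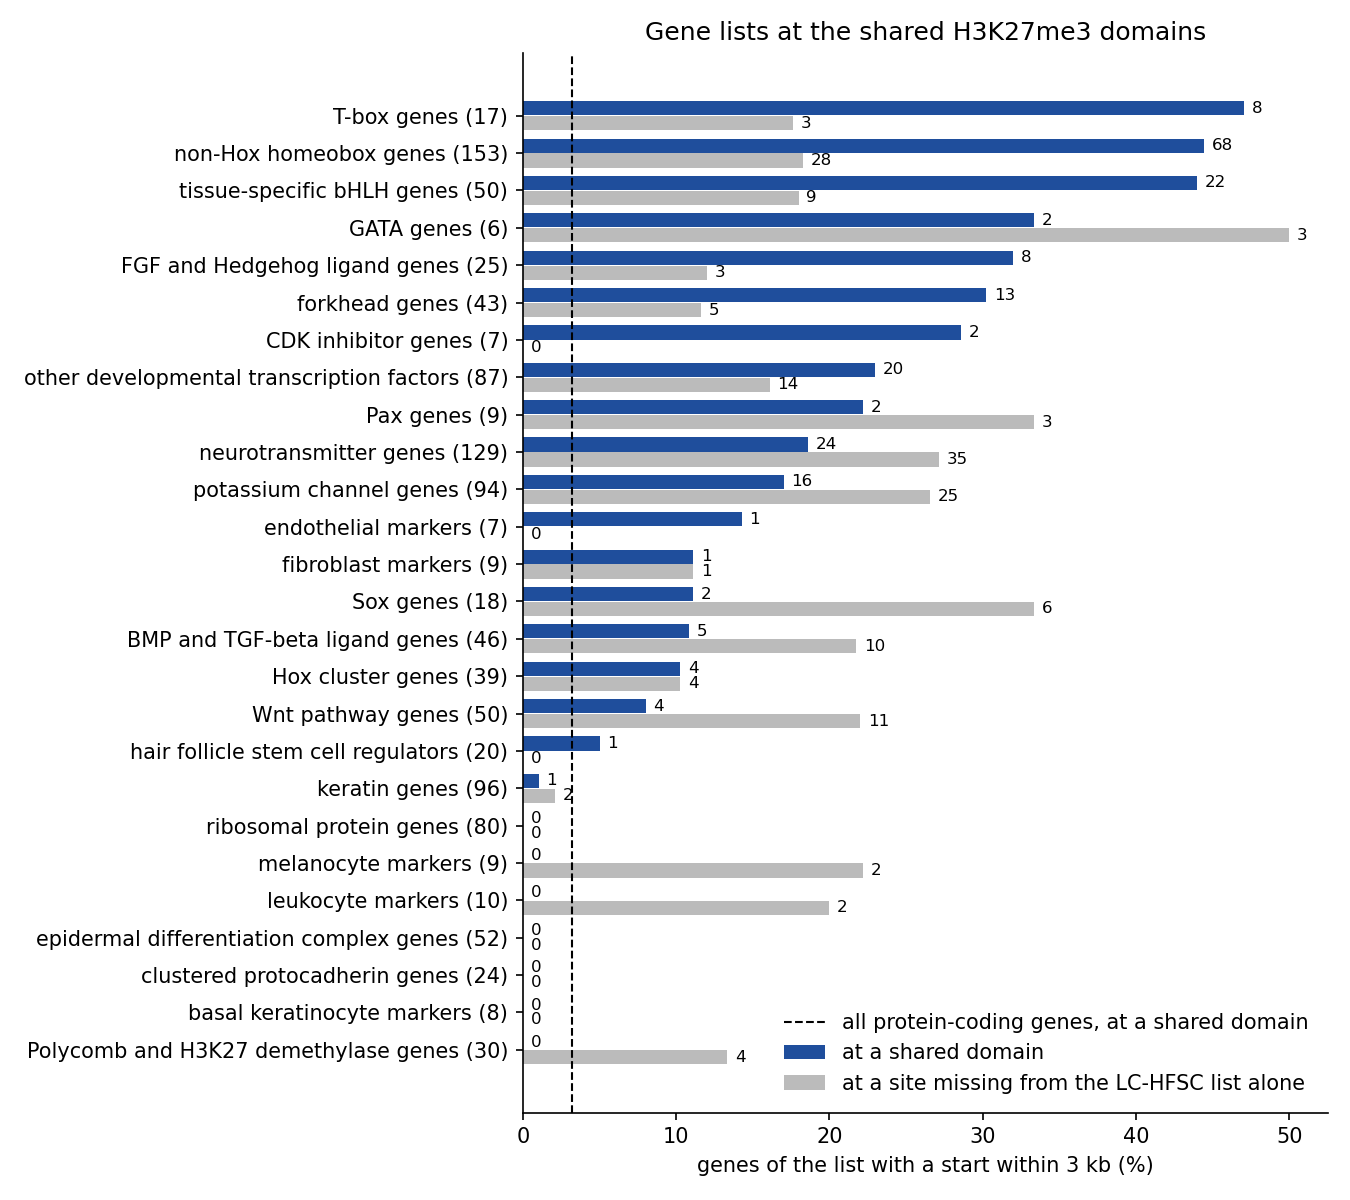
Share of each gene list (number of genes in brackets) with a start within 3000 bp of a shared domain or of a site missing from the LC-HFSC list alone, with the number of genes at each bar. The dashed line is the 3.19% of all protein-coding genes at shared domains, and T-box (8 of 17), non-Hox homeobox (68 of 153) and tissue-specific bHLH genes (22 of 50) had the highest shares.

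Homeobox genes outside the Hox clusters formed the largest group, with 68 of 153 at shared domains (44.4%) and 28 at the sites that only LC-HFSCs lacked. Their median LC-HFSC score was 110, against 65.2 over all domains. The domain at the start of Alx1, a craniofacial homeobox gene, was 6576 bp wide in LC-HFSCs, 9114 bp in EA-HFSCs, 9105 bp in non-EA-HFSCs and 8114 bp in non-LC-HFSCs. At Lmx1a, which specifies midbrain dopamine neurons, the widths were 8674, 18764, 18346 and 12255 bp in the same order. The LC-HFSC domain was thus the narrowest of the 4 at both genes, by more at Lmx1a, where it was less than 50% as wide as in EA-HFSCs. Pou4f1, a sensory neuron factor, and Barx1, a factor of tooth and stomach, completed the 4 with the highest LC-HFSC scores. Of the 68 genes, 15 had H3K4me3 in LC-HFSCs, 43 in EA-HFSCs, 34 in non-EA-HFSCs and 27 in non-LC-HFSCs, against 24.3%, 61.2%, 47.1% and 29.9% of all domains at a gene start in the same order.

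The Hox clusters, which pattern the body axis, contributed 4 of 39 genes. Hoxd1 was at a domain of 7774 bp in LC-HFSCs, and the overlapping peaks summed to 65837 bp in EA-HFSCs, 65724 bp in non-EA-HFSCs and 41149 bp in non-LC-HFSCs. Hoxd3 and Hoxd8 shared a second domain of 5516 bp under the same EA-HFSC and non-EA-HFSC peaks. At both domains, the LC-HFSC peak was thus narrower than the summed peaks of each other list. In non-LC-HFSCs the sum was 24090 bp at the second domain. Hoxa13, the most posterior gene of its cluster, had a domain of 2868 bp in LC-HFSCs and 3386 bp in non-LC-HFSCs, against 36973 bp in EA-HFSCs and 49069 bp in non-EA-HFSCs. The other Hox genes were at the sites that only LC-HFSCs lacked (4 genes of the Hoxb cluster) or at neither kind of site (31).

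Among the T-box genes, 8 of 17 were at shared domains, led by Tbr1, a cortical neuron factor, and Tbx20, a heart factor. The Tbr1 domain was 9625 bp in LC-HFSCs, 26557 bp in EA-HFSCs, 30033 bp in non-EA-HFSCs and 13427 bp in non-LC-HFSCs. Forkhead genes contributed 13 of 43, with Foxl2 of the ovary, Foxa1 of endoderm, Foxb2 and Foxi2 in the lead. Foxl2 had a domain of 6532 bp in LC-HFSCs and 7811 bp in non-LC-HFSCs but 33434 bp in EA-HFSCs and 40060 bp in non-EA-HFSCs, whereas Foxi2 had 5958 bp in LC-HFSCs, 6109 bp in EA-HFSCs, 4634 bp in non-EA-HFSCs and 4810 bp in non-LC-HFSCs. The Foxi2 domain was therefore nearly as wide in quiescent as in active stem cells. Sox17 and Sox18, both factors of endothelium, were the 2 of 18 Sox genes at shared domains, and 6 Sox genes were at the sites that only LC-HFSCs lacked. Pax9 and Pax1 (of 9 Pax genes) and Gata6 and Gata3 (of 6 GATA genes) were also at shared domains.

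Tissue-specific bHLH genes contributed 22 of 50, among them Hand2 of heart and limb, Atoh1 of hair cells and cerebellum, and the neural factor Bhlhe22. Hand2 was covered over 11484 bp in LC-HFSCs but over 52941 bp in EA-HFSCs, 53160 bp in non-EA-HFSCs and 48490 bp in non-LC-HFSCs. Atoh1 was covered over 9330 bp in LC-HFSCs and over 11224, 11324 and 9557 bp in these other lists. The bHLH domains thus ranged from a small piece of a broad domain to nearly all of it. The list of other developmental factors contributed 20 of 87, led by Ebf3, Zic2, Zic5 and Prdm8, all expressed in the nervous system, with a median LC-HFSC score of 154.

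Wnt pathway genes at shared domains were 4 of 50, all of them secreted antagonists (Dkk1, Sfrp5, Wif1 and Sfrp2), and 11 were at the sites that only LC-HFSCs lacked. The Dkk1 domain was 4304 bp wide in LC-HFSCs, 10461 bp in EA-HFSCs, 6657 bp in non-EA-HFSCs and 5557 bp in non-LC-HFSCs, without H3K4me3 in any of them. BMP and TGF-beta ligand genes and their secreted modulators were 5 of 46, including Chrdl2, Bmp8b, Bmper and Gdf7. FGF and Hedgehog ligand genes were 8 of 25 (32.0%). Shh, the ligand that drives hair follicle growth, had a domain of 11116 bp in LC-HFSCs, 14569 bp in EA-HFSCs, 18484 bp in non-EA-HFSCs and 11971 bp in non-LC-HFSCs, with H3K4me3 in all 4. Neuronal genes were present at both kinds of site, with 24 of 129 neurotransmitter genes at shared domains and 35 at the sites that only LC-HFSCs lacked, and 16 of 94 potassium channel genes against 25.

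The CDK inhibitor genes Cdkn2a and Cdkn2b, which arrest the cell cycle and are classic PRC2 targets, lay at neighbouring domains. The Cdkn2a domain (chr4:88933176-88944776) was 11601 bp wide in LC-HFSCs, 42898 bp in EA-HFSCs, 49901 bp in non-EA-HFSCs and 42141 bp in non-LC-HFSCs. The Cdkn2b domain was 10568 bp wide in LC-HFSCs, and 14291 bp in EA-HFSCs, and it lay under the same peaks as Cdkn2a in both non-HFSC lists. In EA-HFSCs the best score was the same at both domains (2371.94), so the EA-HFSC widths of the pair are not separate either. H3K4me3 was on the Cdkn2a domain in all 4 populations and on the Cdkn2b domain in LC-HFSCs alone. The Cdkn2b domain ended 1556 bp from the start of Cdkn2b, so this overlap does not describe H3K4me3 at the start itself. The other 5 CDK inhibitor genes of the list were at neither kind of site.

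The counts for skin genes stand beside the 3.19% of all gene symbols at shared domains. Of 20 hair follicle stem cell regulators, Gata3 was the only one at a shared domain (5.00%), a factor of the inner root sheath whose domain was 4247 bp wide in LC-HFSCs, 12207 bp in EA-HFSCs, 10896 bp in non-EA-HFSCs and 8559 bp in non-LC-HFSCs, with H3K4me3 in all 4. Of 96 keratin genes, Krt8 of simple epithelia was the only one (1.04%). None of 52 epidermal differentiation complex genes, 8 basal keratinocyte markers, 24 clustered protocadherin genes, 80 ribosomal protein genes or 30 Polycomb and H3K27 demethylase genes was at a shared domain. Among markers of other skin cells, Pdgfrb of 9 fibroblast markers (11.1%) and Kdr of 7 endothelial markers (14.3%) were at a shared domain, and none of 9 melanocyte or 10 leukocyte markers was.

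MicroRNA genes inside the domains included Mir34b and Mir34c, neighbours in a p53-responsive cluster, and Mir7-2 of neuroendocrine cells. Of 11 annotated entries that start inside a domain, 5 were matched to mature sequences of RefSeq (GRCm38.p6). The seed, bases 2 to 8, is in capitals, and the 3p forms of miR-34b and miR-34c share theirs.
miR-34b-3p: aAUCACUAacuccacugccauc
miR-34c-3p: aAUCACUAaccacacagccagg
miR-34b-5p: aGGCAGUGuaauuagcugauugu
miR-7a-5p: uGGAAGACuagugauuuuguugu

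The domain of Mir34b and Mir34c was 5094 bp wide in LC-HFSCs, 7220 bp in EA-HFSCs, 7642 bp in non-EA-HFSCs and 6365 bp in non-LC-HFSCs. It had H3K4me3 in both early anagen lists and in neither late catagen list. The domain of Mir7-2 was 6636, 11809, 10831 and 10161 bp wide in the same order of lists and had no H3K4me3 in any.

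H3K4me3 was at a minority of the shared domains and most often in EA-HFSCs. Any overlap of a peak was counted, and the mark was at 636 domains in EA-HFSCs (39.7%, 37.3 to 42.1%, against 35.4% of all LC-HFSC H3K27me3 peaks), 493 in non-EA-HFSCs (30.7%, 28.5 to 33.0%, against 27.6%), 319 in non-LC-HFSCs (19.9%, 18.0 to 21.9%, against 17.9%) and 246 in LC-HFSCs (15.3%, 13.7 to 17.2%, against 13.9%). The shared domains are 84.0% of the peaks behind each of these background shares, so they lie close to them. The other 305 LC-HFSC peaks had H3K4me3 less often, at 13.1% in EA-HFSCs (9.78 to 17.4%) and 6.56% in LC-HFSCs (4.28 to 9.91%). Among domains under 2000 bp wide, the EA-HFSC share was 27.8% (22.9 to 33.3%, n = 284), against 7.75% (4.26 to 13.7%, n = 129) in other peaks of such width. The EA-HFSC share was also the higher one in the shared domains at widths of 2000 to 3000 bp (28.5% against 12.7%), 3000 to 5000 bp (42.5% against 17.1%) and over 5000 bp (57.1% against 36.0%, n = 25 other peaks). The H3K4me3 lists also differ in length, with 14718 peaks in the shortest (LC-HFSCs) and 24498 in the longest (non-EA-HFSCs). When every list was limited to an equal number of its top-scoring peaks, the order changed, with H3K4me3 at 35.9% of the remaining 758 domains in EA-HFSCs, 19.4% in non-EA-HFSCs, 18.9% in LC-HFSCs and 16.6% in non-LC-HFSCs. In the same order of lists, the shares with scores of at least 100 were 46.1, 32.2, 8.64 and 19.4%. Within 500 bp of the domain middle they were 23.1, 15.1, 8.98 and 9.04%.

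**Figure D4:**
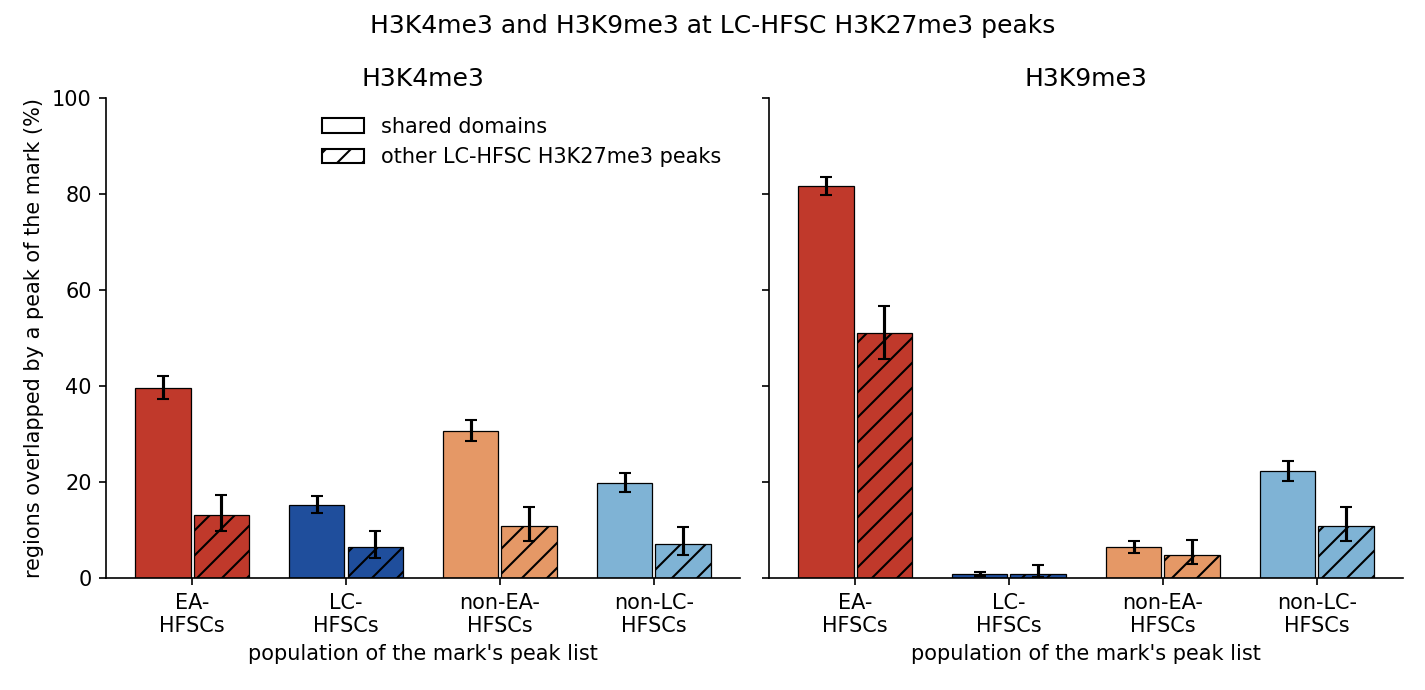
Share of the 1604 shared domains (plain bars) and of the 305 other LC-HFSC H3K27me3 peaks (hatched) overlapped by an H3K4me3 or H3K9me3 peak of each population, with 95% Wilson intervals. H3K4me3 ranged from 15.3% in LC-HFSCs to 39.7% in EA-HFSCs, and H3K9me3 from 0.810% in LC-HFSCs to 81.7% in EA-HFSCs.

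No H3K4me3 peak of any list was at 915 domains (57.0%), and all 4 lists had one at 187 (11.7%). The share with all 4 was 6.02% with scores of at least 100 and 5.11% within 500 bp of the domain middle. H3K4me3 in EA-HFSCs alone was the next pattern with 162 domains (10.1%), then EA-HFSCs and non-EA-HFSCs with 118 (7.36%), and every list but LC-HFSCs with 109 (6.80%). H3K4me3 in LC-HFSCs alone was found at 3 domains. Gene starts held most of the mark. At the 779 domains with a start, 61.2% had H3K4me3 in EA-HFSCs (57.8 to 64.6%) and 24.3% in LC-HFSCs (21.4 to 27.4%), against 19.3% (16.7 to 22.1%) and 6.91% (5.37 to 8.85%) of the 825 others. The H3K4me3 peaks covered a part of each domain, with a median of 1378 bp in LC-HFSCs (35.1% of the domain) and 1328.5 bp in EA-HFSCs (34.0%).

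Of the 636 domains with H3K4me3 in EA-HFSCs, 242 kept it in LC-HFSCs (38.1%, 34.4 to 41.9%), and 4 had it in LC-HFSCs but not in EA-HFSCs. From non-EA-HFSCs to non-LC-HFSCs, 305 of 493 kept it (61.9%, 57.5 to 66.0%), against 66.5% (63.4 to 69.4%) of the EA-HFSC H3K27me3 peaks that only LC-HFSCs lacked and 72.1% of single H3K4me3 peaks of the whole non-EA-HFSC list. The share kept from EA-HFSCs was close to that of the EA-HFSC H3K27me3 peaks that only LC-HFSCs lacked (41.1%, 38.2 to 43.9%). Counted over single H3K4me3 peaks of the whole EA-HFSC list in place of domains, 66.4% overlapped an LC-HFSC peak (n = 21482). In the 401 domains with the highest LC-HFSC H3K27me3 scores, 54.4% had H3K4me3 in EA-HFSCs (49.5 to 59.2%) and 17.0% in LC-HFSCs (13.6 to 20.9%), against 29.2% (24.9 to 33.8%) and 10.2% (7.63 to 13.6%) in the 401 with the lowest. Within 500 bp of the domain middle the shares lay close together, at 25.9% (21.9 to 30.4%) against 21.2% (17.5 to 25.5%) in EA-HFSCs and 7.98% in both sets in LC-HFSCs. The kept shares moved with the peaks used, to 48.9% from EA-HFSCs and 70.1% from non-EA-HFSCs with equal numbers of top-scoring peaks, and to 18.8% (13.7 to 25.2%) and 56.1% (47.3 to 64.6%) with scores of at least 100.

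None of the 10 domains with the highest LC-HFSC scores had H3K4me3 in LC-HFSCs. The mark was at 15.3% of all shared domains there and at 17.0% of the 401 with the highest scores, and the difference was not tested. The first was at Rfx4, a winged-helix factor of brain development (chr10:84214269-84223890, score 568), with 9622 bp in LC-HFSCs, 15680 bp in EA-HFSCs, 17305 bp in non-EA-HFSCs and 15620 bp in non-LC-HFSCs. An H3K4me3 peak of 2775 bp covered its start in EA-HFSCs, while those of non-EA-HFSCs (985 bp) and non-LC-HFSCs (623 bp) began 245 and 434 bp downstream of it. The next were at Robo3, an axon guidance receptor (score 523), Tbr1 (433), Tmem132e (388) and Cbln1, a synapse organiser (380). Another 4 were near or at homeobox and neural genes, 15431 bp from Evx1 (376), 11692 bp from Zfhx3 (345), at Alx1 (339) and at Ebf3 (334), and 1 lay 141780 bp from Fgf1 (346). EA-HFSCs had H3K4me3 at 7 of these 10 domains and H3K9me3 at all 10. Over all shared domains the EA-HFSC shares were 39.7% and 81.7%, and in the 401 with the highest scores 54.4% and 95.8%.

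**Figure D5:**
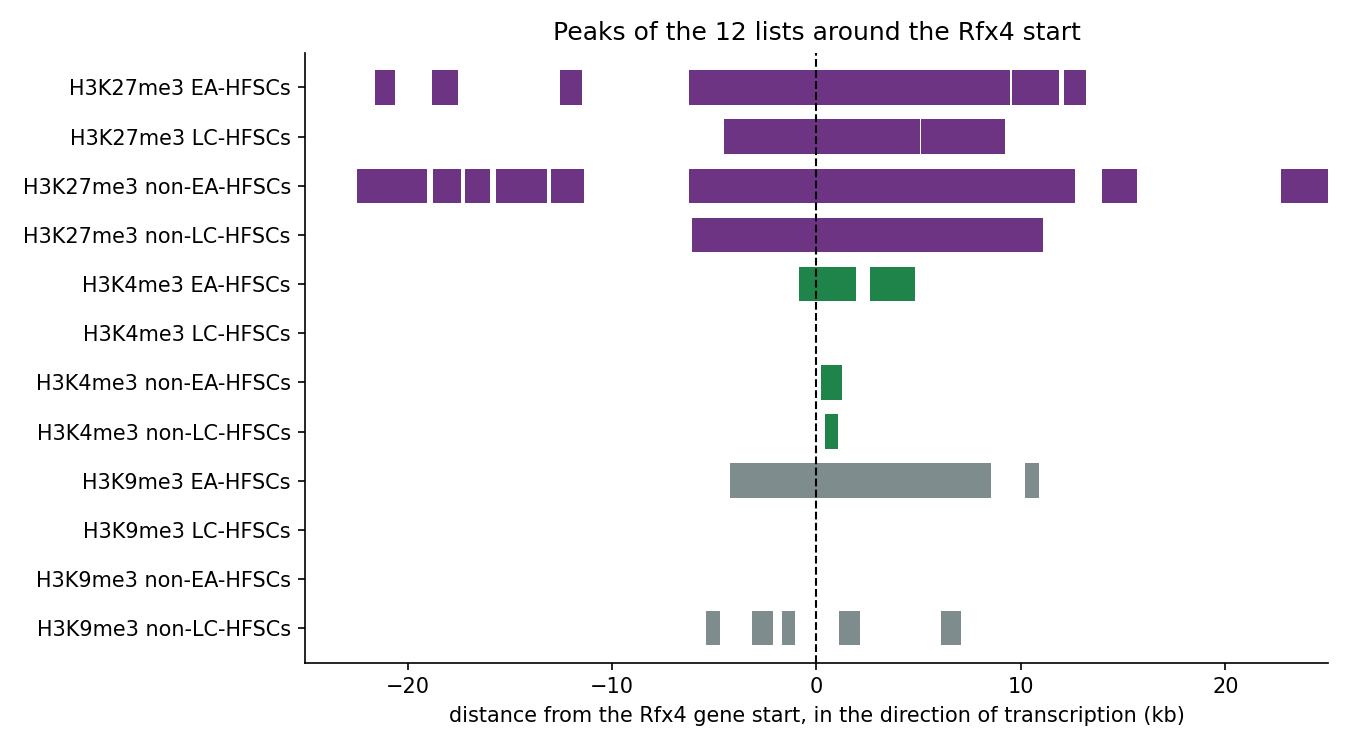
Peaks of the 12 lists within 25 kb of the Rfx4 start, by distance from the start in the direction of transcription (kb), with 1 row per mark and population. The H3K27me3 domain spans the start in all 4 populations, and H3K4me3 is absent from the LC-HFSC row alone. The widest H3K9me3 peak, of 12740 bp, lies in the EA-HFSC row, with narrower H3K9me3 peaks in that row and in the non-LC-HFSC row.

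The 10 domains that were widest in LC-HFSCs were all at gene starts, most of them of developmental transcription factors. Of all shared domains 48.6% were at a start, and a wider domain reaches a start within 3000 bp more readily. The widest, at the skeletal homeobox gene Nkx3-2, measured 22980 bp in LC-HFSCs, 29909 bp in EA-HFSCs, 31802 bp in non-EA-HFSCs and 27173 bp in non-LC-HFSCs. The domain at Lhx1 and Aatf measured 21627, 22474, 25321 and 22410 bp in the same order. Tlx1 differed more, with 17299, 38115, 52405 and 36724 bp. Others were at Olig2 (21421 bp in LC-HFSCs), Hmx2, Hmx3 and Bub3 (18783 bp), Tbx18 (18153 bp), Cyp26a1 and Cyp26c1, which degrade retinoic acid (17961 bp), Foxf1a (15805 bp) and Pax9 (15804 bp). H3K4me3 was present in LC-HFSCs at Nkx3-2, Lhx1 and Foxf1a.

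H3K9me3 was at most of the shared domains in EA-HFSCs and at few in LC-HFSCs. The mark overlapped 1310 domains in EA-HFSCs (81.7%, 79.7 to 83.5%, against 76.8% of all LC-HFSC H3K27me3 peaks), 357 in non-LC-HFSCs (22.3%, 20.3 to 24.4%, against 20.4%), 103 in non-EA-HFSCs (6.42%, 5.32 to 7.73%, against 6.18%) and 13 in LC-HFSCs (0.810%, 0.474 to 1.38%, against 0.838%). The shared domains are 84.0% of the peaks behind these background shares too. In EA-HFSCs the H3K9me3 peaks covered 58.3% of the summed length of the domains. Domains with H3K4me3 in EA-HFSCs carried H3K9me3 there in 91.5% of cases (582 domains), against 75.2% of the others. Both marks were more frequent in wider domains. From under 2000 bp to over 5000 bp, the EA-HFSC share rose from 62.3% to 98.2% for H3K9me3 and from 27.8% to 57.1% for H3K4me3. The part of width in their overlap was not tested. The EA-HFSC H3K9me3 list is the longest, with 42277 peaks, and that of LC-HFSCs the shortest, with 1414, and the part of list length in these shares was not tested beyond the following. With the 1414 top-scoring H3K9me3 peaks of each list, the shares over the 758 remaining domains were 49.5% in EA-HFSCs, 6.86% in non-LC-HFSCs, 0.923% in LC-HFSCs and 0.660% in non-EA-HFSCs. The EA-HFSC share of the 305 other LC-HFSC peaks was 51.1% (45.6 to 56.7%), and that of the EA-HFSC H3K27me3 peaks that only LC-HFSCs lacked was 45.5% (44.1 to 46.9%). By width, it was 62.3% in shared domains against 41.9% in other LC-HFSC peaks under 2000 bp, and 72.4% against 48.2% at 2000 to 3000 bp. The shares were 88.0% against 61.0% at 3000 to 5000 bp. Over 5000 bp they lay close together, at 98.2% against 96.0% (n = 25 other peaks).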

How the data were processed

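Trimmed single-end reads (Trimmomatic 0.22 in the submitters' processing notes) were aligned by the authors to mm9 with Bowtie2, reads of repeat experiments were pooled, and peaks were called with MACS, with the IgG sample of each population as background. Deposited lists give each peak's position and a score, which the authors' caller computed from the p-value as −log10 times 10. Their thresholds, read from the lowest scores, were 1e-05 (H3K4me3) and 1e-04 (the other marks). Scores ranked peaks within a list. The series has 16 samples, of which the 4 IgG libraries have no list here, and 12 lists were used.

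Overlaps (at least 1 bp), shares, medians and their 95% intervals were obtained in Python 3.11.15 (numpy 2.4.6, scipy 1.17.1), sequences were read with pysam 0.24.0, and figures were drawn with matplotlib 3.10.9. The overlap steps were tested on 20000 simulated peaks, where 5 of 5 steps were recovered and the counts equalled those of bedtools 2.31.1. Positions are 1-based on mm9. Genes were the 22225 protein-coding symbols of GENCODE vM1 on the NCBIM37 genome, the same assembly. The 4 domains on unplaced sequence were matched to no gene or sequence. They stay in the 1604 domains behind the share at gene starts and among the 825 counted as away from starts. The peak lists hold no replicates, so no p-value was computed.

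Members, gene lists and rules were chosen with earlier results of these data known. The genes named are the 10 domains with the highest LC-HFSC score, the 10 widest, the 5 peaks on each side of the rule, up to 4 genes per list by LC-HFSC score, and all CDK inhibitors and stem cell regulators at a domain. Some genes that this rule names are not reported here. Examples with sequences follow the rule given with them. A pattern in the neurotransmitter list that had also taken in protease genes was corrected after the lists were matched. The alternatives were score thresholds of 50 and 100, an overlap of 50%, the 19 autosomes, peaks less than 1 kb apart merged, equal numbers of top-scoring peaks (1909 for H3K27me3, 14718 for H3K4me3 and 1414 for H3K9me3), other gene start rules, the widest single peak, EA-HFSC peaks as the anchor and marks within 500 bp of the domain middle.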

Additional observations from a re-analysis of the deposited data

Results flagged for a closer look

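From EA-HFSCs to LC-HFSCs, the share of shared domains with an H3K9me3 peak fell by 80.9 percentage points, from 81.7% to 0.810%. The change between the non-HFSC populations had the opposite sign, with a share 15.8 percentage points higher in non-LC-HFSCs (22.3%) than in non-EA-HFSCs (6.42%). It was this opposite direction that drew attention to the pair, and the difference between the changes was not tested, because there is 1 list per population. Both changes were also seen over all LC-HFSC H3K27me3 peaks, of which the shared domains are 84.0%. Their shares were 76.8% in EA-HFSCs, 0.838% in LC-HFSCs, 6.18% in non-EA-HFSCs and 20.4% in non-LC-HFSCs. Numbers of H3K9me3 peaks in the whole lists moved the same way in the stem cells, from 42277 in EA-HFSCs to 1414 in LC-HFSCs, and were close in the others, with 17873 in non-EA-HFSCs and 18236 in non-LC-HFSCs. The higher share in non-LC-HFSCs shrank under other settings, to 5.76% (3.83 to 8.57%) against 2.88% (1.62 to 5.08%) in non-EA-HFSCs with scores of at least 100, where the intervals overlap, and to 10.3% against 3.43% within 500 bp of the domain middle. Those settings gave 83.5% and 72.9% in EA-HFSCs against 0.262% and 0.686% in LC-HFSCs. With 1414 top-scoring H3K9me3 peaks and 1909 top-scoring H3K27me3 peaks from each list, which left 758 domains, the shares were 49.5% in EA-HFSCs, 0.923% in LC-HFSCs, 0.660% in non-EA-HFSCs and 6.86% in non-LC-HFSCs.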

How the results depend on the processing

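Of 141 values recomputed under 12 alternatives, 69 stayed within their 95% interval or, for counts, within 1.5 times, and 72 did not. Values in a series of 4 begin with LC-HFSCs and EA-HFSCs and end with non-EA-HFSCs and then non-LC-HFSCs. With scores of at least 50, median widths were 3708, 8119.5, 11058 and 5956.5 bp, H3K4me3 shares 17.3, 43.6, 34.3 and 22.3%, the share at gene starts 51.8% and the CpG ratio 0.355. With scores of at least 100, there were 382 domains in 331 runs at 222 genes, with widths of 5606, 11185.5, 13500 and 8343 bp, 58.6% at gene starts, H3K4me3 at 8.64% in LC-HFSCs, 46.1% in EA-HFSCs and 6.02% in all 4, H3K9me3 in EA-HFSCs at 83.5% and a CpG ratio of 0.399. With equal numbers of top-scoring peaks, there were 758 domains in 591 runs at 413 genes, with widths of 4391, 9425.5, 12322 and 7335.5 bp, 60.8% at gene starts, H3K4me3 at 18.9, 35.9, 19.4 and 16.6% and at 10.03% in all 4, H3K9me3 in EA-HFSCs at 49.5% and a CpG ratio of 0.387. Merging peaks less than 1 kb apart gave widths of 3512, 10240, 12554 and 7522 bp, and taking the widest single peak gave 4911 bp in non-LC-HFSCs. An overlap of at least 50% gave H3K4me3 at 11.2, 28.4, 24.1 and 15.6% and at 6.99% in all 4. Marks within 500 bp of the domain middle, an alternative chosen after seeing the data, gave H3K4me3 at 8.98, 23.1, 15.1 and 9.04% and at 5.11% in all 4, and H3K9me3 in EA-HFSCs at 72.9%. Gene starts inside the domain were at 25.7% of domains with 424 genes, and any transcript start within 3000 bp at 55.0%. The causes of these shifts were not tested. The order of the median widths was the same in each of these alternatives, and the order of the H3K4me3 shares changed with equal numbers of top-scoring peaks, where LC-HFSCs were above non-LC-HFSCs. The settings for H3K9me3 outside EA-HFSCs and for kept H3K4me3 were also added after seeing the data.

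The lists give no depth behind single peaks, which limits every statement on the absence of a peak, and the study's methods state that LC-HFSCs had more reads than EA-HFSCs. Replicates were pooled by the authors, and leaving out a replicate was therefore not run. No paired analysis was possible because each population and mark has 1 peak list and no test was run.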
